A study of Mus musculus with 4 samples.

Results

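The cell cycle and mitosis genes are 42 genes of DNA replication, cyclins and their kinases, the spindle, chromosome segregation and anaphase. They were listed by function, and all 42 were found among the 18674 gene names of the table. RNA from the lumbar spinal cord was sequenced in 4 libraries, 1 for each genotype (WT or G93A) given vehicle or SD, where SD is spermidine, a polyamine. Values of a gene in the 4 libraries are given with both WT libraries first and then both G93A libraries, and within a genotype with vehicle before SD. G93A mice carry a human SOD1 transgene with the G93A mutation and are a model of amyotrophic lateral sclerosis. WT mice are without it. The mice were males from high-expresser G93A H1 transgenic males bred with B6/SJLF1 females. They were killed when 100 days old. SD at 5 mg/kg, or the vehicle, which the labels give as PBS, was injected into the peritoneum 4 times a week for 30 days. The transgene is carried in the germline, so every cell type of the cord holds it. The number of animals behind a library is not given in the sources used here. With 1 library per condition there is no replicate error, no test was run and no p-value is given, and each difference is a difference between libraries.

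A cell enters the cycle when D-type cyclins and their kinases release E2F factors from the retinoblastoma protein, and E2F then turns on the genes of DNA synthesis. Cyclin A and cyclin B with Cdk1 take the cell into mitosis, and the anaphase promoting complex ends it by marking securin and cyclin B for destruction. Most neurons of the adult cord have left the cycle for good, while glial cells and microglia can divide, and microglia are known to do so in mutant SOD1 mice.

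Genes of S phase often carry E2F letters before their start, and genes of mitosis often carry a cell cycle genes homology region (CHR) and CCAAT boxes. Upstream sequence was taken from RefSeq (GRCm38.p6), where 35 of the 42 genes matched, with 38 entries. Ccna2, Ccne2, Ccnd1, Mcm4, Aurkb, Kif20a and Tpx2 had no entry. The 250 bases before the start were searched on both strands for CHR letters (TTTGAA and its variants with the letters TTCGAA as well as those with TTTAAA), for CCAAT and for E2F letters (TTTCCCGC, TTTGGCGC, TTTCGCGC or TTTGCCGC). The following 6 windows are shown because their genes span mitotic exit, chromosome structure, the mitotic kinases and the replicative helicase. They are Ube2c at chr2:164769679-164769928 (plus strand), Cdc20 at chr4:118437344-118437593 (minus strand), Top2a at chr11:99024190-99024439 (minus strand), Cdk1 at chr10:69352913-69353162 (minus strand), Plk1 at chr7:122159185-122159434 (plus strand) and Mcm6 at chr1:128359706-128359955 (minus strand). Each is written 5′ to 3′ on the strand of its gene and ends at the base before the start, with every match on either strand in capitals.
Ube2c: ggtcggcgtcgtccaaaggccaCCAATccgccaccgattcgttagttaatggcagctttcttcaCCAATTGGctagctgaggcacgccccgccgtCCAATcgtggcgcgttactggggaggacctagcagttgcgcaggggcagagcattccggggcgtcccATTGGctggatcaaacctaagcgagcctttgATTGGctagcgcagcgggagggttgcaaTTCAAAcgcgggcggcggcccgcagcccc
Cdc20: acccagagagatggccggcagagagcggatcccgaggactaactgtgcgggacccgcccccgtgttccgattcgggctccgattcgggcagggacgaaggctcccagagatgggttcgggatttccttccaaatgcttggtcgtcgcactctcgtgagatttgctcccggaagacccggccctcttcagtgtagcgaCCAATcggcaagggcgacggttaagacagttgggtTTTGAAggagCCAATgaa
Top2a: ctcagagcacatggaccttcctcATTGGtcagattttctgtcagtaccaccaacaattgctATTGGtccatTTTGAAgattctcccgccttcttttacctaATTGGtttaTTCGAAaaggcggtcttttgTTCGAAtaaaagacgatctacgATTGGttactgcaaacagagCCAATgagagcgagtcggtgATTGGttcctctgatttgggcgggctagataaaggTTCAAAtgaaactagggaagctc
Cdk1: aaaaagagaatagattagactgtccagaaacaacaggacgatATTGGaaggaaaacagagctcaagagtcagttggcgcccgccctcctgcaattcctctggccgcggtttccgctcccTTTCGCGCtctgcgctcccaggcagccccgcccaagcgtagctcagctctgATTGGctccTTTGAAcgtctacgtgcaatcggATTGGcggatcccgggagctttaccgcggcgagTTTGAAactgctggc
Plk1: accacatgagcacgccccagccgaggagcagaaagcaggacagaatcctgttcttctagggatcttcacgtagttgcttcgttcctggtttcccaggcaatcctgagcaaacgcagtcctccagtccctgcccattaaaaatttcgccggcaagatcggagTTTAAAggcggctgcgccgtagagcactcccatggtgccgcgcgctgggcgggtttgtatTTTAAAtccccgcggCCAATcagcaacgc
Mcm6: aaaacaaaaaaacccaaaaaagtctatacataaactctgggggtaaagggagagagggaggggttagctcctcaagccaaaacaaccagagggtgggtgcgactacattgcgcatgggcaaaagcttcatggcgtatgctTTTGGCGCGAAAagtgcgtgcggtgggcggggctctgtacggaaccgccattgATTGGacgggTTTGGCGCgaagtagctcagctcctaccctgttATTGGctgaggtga
In the Ube2c window, 2 CCAAT matches on opposite strands overlap in the run CCAATTGG. In the Mcm6 window, 2 E2F matches overlap in the same way in the run TTTGGCGCGAAA.

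The windows before Ube2c and Top2a each hold 6 CCAAT matches. CHR letters begin 29 bases before the start of Ube2c, 18 before Cdc20, 23 before Top2a, 15 before Cdk1 and 29 before Plk1, while the Mcm6 window holds none and has E2F letters at 110, 106 and 47 bases before the start. CCAAT was found in 30 of the 38 entries (78.9%), against 33.8% of all 32851 promoters in the table. CHR letters were found in 13 of 20 entries (65%) of genes acting in G2, mitosis or anaphase and in 6 of 18 entries (33.3%) of genes acting in G1 or S phase, against 26.2% of all promoters. E2F letters showed the opposite order, in 1 of 20 entries (5%) and 6 of 18 entries (33.3%), against 1.86% of all promoters. In the 50 bases nearest the start, a window chosen after the matches had been seen, CHR letters were found in 8 of 20 and 1 of 18 entries, against 5.03% of all promoters. The windows of Cdt1, Nusap1, Tyms and Pttg1 held none of these letters. The windows of Pttg1, Cdc6 and Mcm7, and the Uhrf1 window at chr17:56304063-56304312, lie inside the longer genes that GENCODE M21 draws. Those of Cdc6, Mcm7 and Uhrf1 are among the entries with E2F letters. Some other windows run partly into the genes drawn there. Among them are those of Ube2c and Cdk1, whose CHR letters nearest the start lie in that part. A match is a description of the sequence, and it was not tested whether any factor binds there.

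Most of the 42 genes were higher in the G93A libraries, with and without SD. Their summed level was 75.2 and 79.4 RPKM (reads for each kilobase of a transcript, relative to library depth) in WT vehicle and WT + SD, and 145 and 165 RPKM in the corresponding G93A libraries. In G93A vehicle against WT vehicle (the vehicle pair), 33 genes were at least 1.5-fold higher and 1 was at least 1.5-fold lower. Of all 18674 names, 20.3% were higher and 10.3% lower by that much. In G93A + SD against WT + SD (the SD pair) the members again gave 33 higher and 1 lower, against 23.2% and 12.5% of all names. The median log2 fold change of the 42 genes (pseudocount 0.1 RPKM) was 1.34 in the vehicle pair and 1.20 in the SD pair, while that of all names was 0.05 in both.

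With SD within a genotype, the shares of members past 1.5-fold were near or under those of all names. In WT + SD against WT vehicle, 3 genes were at least 1.5-fold higher and 2 lower, against 7.18% and 8.55% of all names, and the median log2 fold change was 0.02. In G93A + SD against G93A vehicle, 2 were higher and 1 lower, against 8.71% and 7.31% of all names, and the median was -0.08. Each library enters 1 genotype pair and 1 SD comparison, so these share libraries.

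**Figure D1:**
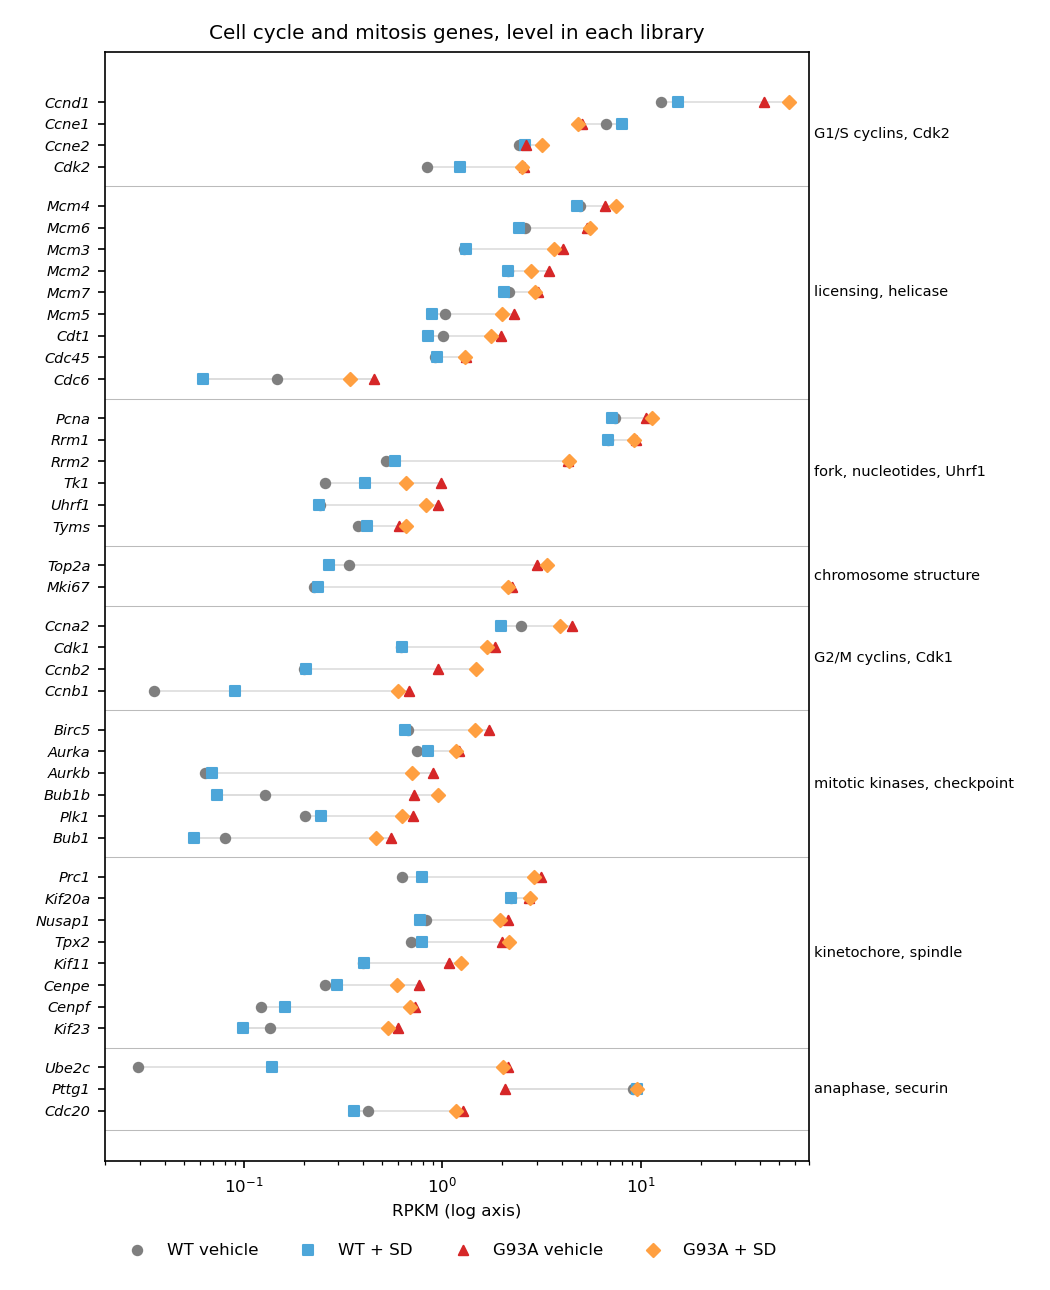
RPKM of each of the 42 genes in the 4 libraries, with genes in rows grouped by role and RPKM on a log axis, 1 point per library. The G93A points lie to the right of the WT points for most genes, and Pttg1 has a G93A vehicle point, at 2.07 RPKM, that lies apart from the other 3.

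The genotype pairs share no library. In both pairs, 31 of the 42 genes were at least 1.5-fold higher (14.9% of all names), which is 31 of the 33 in each pair, and 0 were at least 1.5-fold lower in both (5.11% of all names). Aurka and Mcm2 passed only in the vehicle pair and Mcm4 and Pcna only in the SD pair, while Ccne2, Kif20a, Cdc45, Mcm7 and Rrm1 passed in neither. Both G93A libraries lay above both WT libraries for 40 of the 42 genes, against 39.7% of all names. Ccne1 lay below in both G93A libraries, as did 28% of all names, and Pttg1 overlapped between the genotypes.

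**Figure D2:**
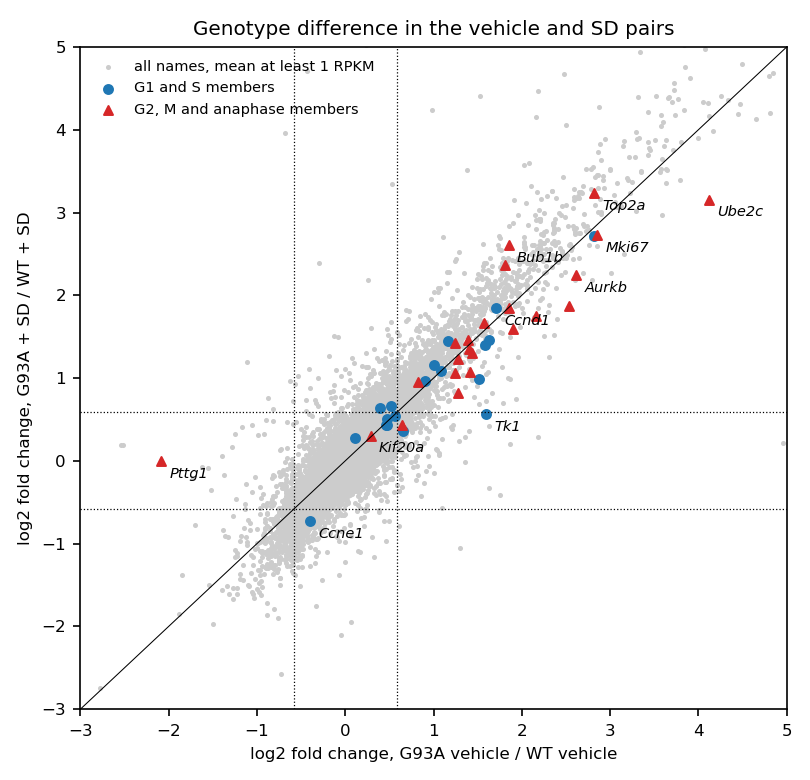
Log2 fold change (pseudocount 0.1 RPKM) of G93A vehicle against WT vehicle on the x axis and of G93A + SD against WT + SD on the y axis, with all gene names of a mean of at least 1 RPKM in grey. The dotted lines mark 1.5-fold, and names beyond the axes are not drawn. For 35 of the 42 genes the values lie within 0.5 of each other, and Pttg1 stands away from the diagonal.

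The genes were mostly low in the WT cord. The median member stood at 0.649 RPKM in WT vehicle and 0.710 RPKM in WT + SD, and at 2.04 and 1.98 RPKM in the G93A libraries. In the same order, 15, 14, 29 and 30 of the 42 genes reached 1 RPKM. From the steps between low values, the depth was estimated at 36800000 to 38600000 read pairs per library, and 10 members had under 20 estimated read pairs in WT vehicle.

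A mean of at least 1 RPKM over the 4 libraries was reached by 26 members. Of these, 10 were under 1 RPKM in both WT libraries and passed only through the G93A libraries, so the counts of the 26 are a description and not a further result. In the vehicle pair 17 were higher and 1 lower (13.5% and 4.68% of the 12987 names at that level), and in the SD pair 18 and 1 (16.3% and 8.12%). With SD, 1 was higher and 0 lower in WT (0.909% and 1.36%) and 1 and 0 in G93A (1.34% and 1.04%).

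By call counts and medians, the genes that act in G2, mitosis and anaphase had larger differences than those of G1 and S phase. In the vehicle pair, 21 of the 23 later genes were higher and the median log2 fold change was 1.44, against 12 of 19 earlier genes with a median of 0.90. In the SD pair these were 20 of 23 with a median of 1.46 and 13 of 19 with a median of 0.66. The ratio of summed RPKM was 1.83 for the later and 1.97 for the earlier genes in the vehicle pair. In the SD pair it was 2.10 for the later and 2.07 for the earlier genes. The difference between the groups was not tested.

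Cyclin D1, which starts the passage through G1, had the highest level of the 42 genes in every library. Ccnd1 lies at chr7:144929931-144939925 (minus strand, GRCm38). It stood at 12.6 and 15.4 RPKM in WT (vehicle, then SD) and at 41.7 and 55.7 RPKM in G93A. It was 3.29-fold higher in the vehicle pair and 3.61-fold higher in the SD pair, and had a ratio of 1.34 between the G93A libraries. Its share of the members' summed RPKM was 16.8%, 19.4%, 28.7% and 33.7%, and without it the sums were 62.5, 64.0, 103 and 110 RPKM. The exons of Ccnd1 overlap those of a gene on the opposite strand, LTO1, over 29.4% of their length.

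The E-type cyclins did not follow cyclin D1. Ccne1, which drives entry into S phase with Cdk2, stood at 6.72 and 8.06 RPKM in WT and at 5.07 and 4.82 RPKM in G93A. Its ratio was 0.755 in the vehicle pair and 0.598 in the SD pair, so it was the lower member of the SD pair. Ccne2, the other E-type cyclin, was near level at 2.45, 2.61, 2.65 and 3.17 RPKM. Cdk2, their kinase, was higher in both G93A libraries, with 0.841, 1.22, 2.59 and 2.52 RPKM.

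Of the 9 genes that license replication origins or form the helicase, 6 were at least 1.5-fold higher in each genotype pair. Cdc6 loads the helicase with Cdt1, and Mcm2 to Mcm7 form its ring. Mcm3 stood at 1.28 and 1.32 RPKM in WT and at 4.04 and 3.65 RPKM in G93A, the largest ratios of the ring (3.15 and 2.75). The smallest ratio of the ring in the vehicle pair was that of Mcm4, at 1.32 (4.97, 4.77, 6.57 and 7.47 RPKM). Mcm6 and Mcm5 were about as much higher as each other, with ratios of 2.05 and 2.24 in the vehicle pair and 2.29 and 2.25 in the SD pair. Mcm2 had ratios of 1.61 and 1.29, and Mcm7 had ratios of 1.40 and 1.44.

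Among the loaders, Cdt1 was at 1.01, 0.848, 1.98 and 1.75 RPKM, with the G93A libraries above the WT libraries. Cdc6 was low throughout, at 0.147 and 0.0625 RPKM in WT and at 0.453 and 0.343 RPKM in G93A. It was 1 of the 2 genes that were lower with SD in WT, with a ratio of 0.426 on about 9 against 19 read pairs (95% exact counting interval 0.182 to 1.06). Cdc45, which joins the ring to make the active helicase, had ratios of 1.43 and 1.38, under the 1.5-fold mark in both pairs.

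At the replication fork, the 2 subunits of ribonucleotide reductase differed. Rrm2, the subunit made mainly in S phase, stood at 0.522 and 0.579 RPKM in WT and at 4.30 and 4.34 RPKM in G93A, a ratio of 8.24 in the vehicle pair and 7.50 in the SD pair. Rrm1, the large subunit, was at 6.82, 6.84, 9.42 and 9.28 RPKM, with ratios of 1.38 and 1.36. Pcna, the sliding clamp of the polymerases, was at 7.38, 7.18, 10.6 and 11.4 RPKM. Its values are uncertain, since a pseudogene, Pcna-ps2, shares 16.2% of its windows at the estimated length of a read pair and 30.8% at 53 bases. At 53 bases, the length of a read, shared windows were also over 10% in Mcm7 (24.4%), Uhrf1 (18.2%) and Cdc20 (10.1%), whose values are uncertain to that extent. Uhrf1, which keeps DNA methylation through replication, was higher with ratios of 3.95 and 3.46. Tyms, which makes thymidylate, had ratios of 1.60 and 1.57.

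Tk1, the thymidine kinase of S phase, was the gene of this group whose level moved most with SD. It stood at 0.258 and 0.410 RPKM in WT and at 0.981 and 0.653 RPKM in G93A. The ratio of the genotypes was 3.80 with vehicle and 1.59 with SD. About 14, 23, 54 and 36 read pairs stood behind these values.

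Mki67 and Top2a, the common markers of dividing cells, were among the genes with the largest differences. Mki67, which coats mitotic chromosomes and lies at chr7:135689784-135716361 (minus strand, GRCm38), stood at 0.225 and 0.238 RPKM in WT and at 2.25 and 2.14 RPKM in G93A. Top2a, which untangles replicated DNA, stood at 0.339, 0.269, 2.999 and 3.36 RPKM. The ratios were 9.999 and 8.98 for Mki67 and 8.86 and 12.5 for Top2a, with no overlap between the genotypes in either gene.

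The cyclins and the kinase that drive mitosis were higher in both G93A libraries, all 4 in both pairs. Cdk1 stood at 0.622 and 0.628 RPKM in WT and at 1.85 and 1.69 RPKM in G93A. Ccnb1, its main mitotic cyclin, stood at 0.0352, 0.0902, 0.680 and 0.598 RPKM. The WT vehicle value of Ccnb1 rests on about 3 read pairs against 64 in G93A vehicle, so its ratio of 19.3 has a 95% exact counting interval from 6.76 to 103. Windows shared with pseudogenes make up 26.7% of Ccnb1 at read-pair length and 41.3% at 53 bases, and its values are uncertain for that reason too.

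Ccnb2, the other B-type cyclin, was, with Pttg1, 1 of 2 members higher with SD in G93A. It stood at 0.201 and 0.207 RPKM in WT and at 0.952 and 1.49 RPKM in G93A, with a ratio of 1.56 between the G93A libraries. Ccna2 was the highest of the 4 and differed least, with 2.50, 1.97, 4.51 and 3.91 RPKM and ratios of 1.80 and 1.98. Its exons overlap Exosc9 on the opposite strand over 17.2% of their length.

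The mitotic kinases and checkpoint genes were low in WT and higher in G93A. Aurkb, the kinase of the chromosomal passenger complex, stood at 0.0635 and 0.0694 RPKM in WT and at 0.900 and 0.702 RPKM in G93A. These values rest on about 5, 5, 67 and 53 read pairs, and the ratios of 14.2 and 10.1 have 95% exact counting intervals from 5.29 to 41.3 and from 4.23 to 33.7. Birc5, or survivin, of the same complex had ratios of 2.57 and 2.25. Bub1 and Bub1b, which hold anaphase until chromosomes are attached, had ratios of 6.89 and 5.63 in the vehicle pair and 8.26 and 12.9995 in the SD pair. The last of these rests on about 135 against 10 read pairs (95% exact counting interval 7.05 to 28.5). Bub1b was the other gene that was lower with SD in WT, at 0.0732 against 0.128 RPKM. That ratio of 0.570 rests on about 10 against 17 read pairs (95% exact counting interval 0.232 to 1.31), and it was not past 1.5-fold with a pseudocount of 0.1 RPKM. Plk1, which acts from mitotic entry to exit, had ratios of 3.47 and 2.55. Aurka, the spindle pole kinase, differed least, with ratios of 1.63 and 1.39.

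The kinetochore, spindle and cytokinesis genes gave 7 of 8 higher in both pairs. Cenpf and Cenpe, which sit at the outer kinetochore, had ratios of 5.98 and 2.99 in the vehicle pair and 4.27 and 2.03 in the SD pair. Prc1, which bundles the midzone microtubules, stood at 0.625 and 0.792 RPKM in WT and at 3.14 and 2.89 RPKM in G93A. Kif23, a motor of cytokinesis, had ratios of 4.41 and 5.38, and Kif11, the motor that separates the spindle poles, 2.71 and 3.09. Tpx2 and Nusap1, which build and bundle spindle microtubules, had ratios of 2.88 and 2.59 in the vehicle pair and 2.75 and 2.52 in the SD pair.

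Kif20a, another motor of cytokinesis, was the exception at 2.22, 2.23, 2.73 and 2.78 RPKM, with ratios of 1.23 and 1.24. Its exons overlap those of Cdc23 on the opposite strand over 31.8% of their length, and Cdc23 stood at 8.77, 8.98, 9.80 and 9.98 RPKM. Whether reads of the overlap were given to the right strand was not tested. Over the 11 members whose exons overlap a gene of the opposite strand, 7 were higher in the vehicle pair and the median log2 fold change was 1.27. Over the other 31 genes, 26 were higher with a median of 1.40.

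**Figure D3:**
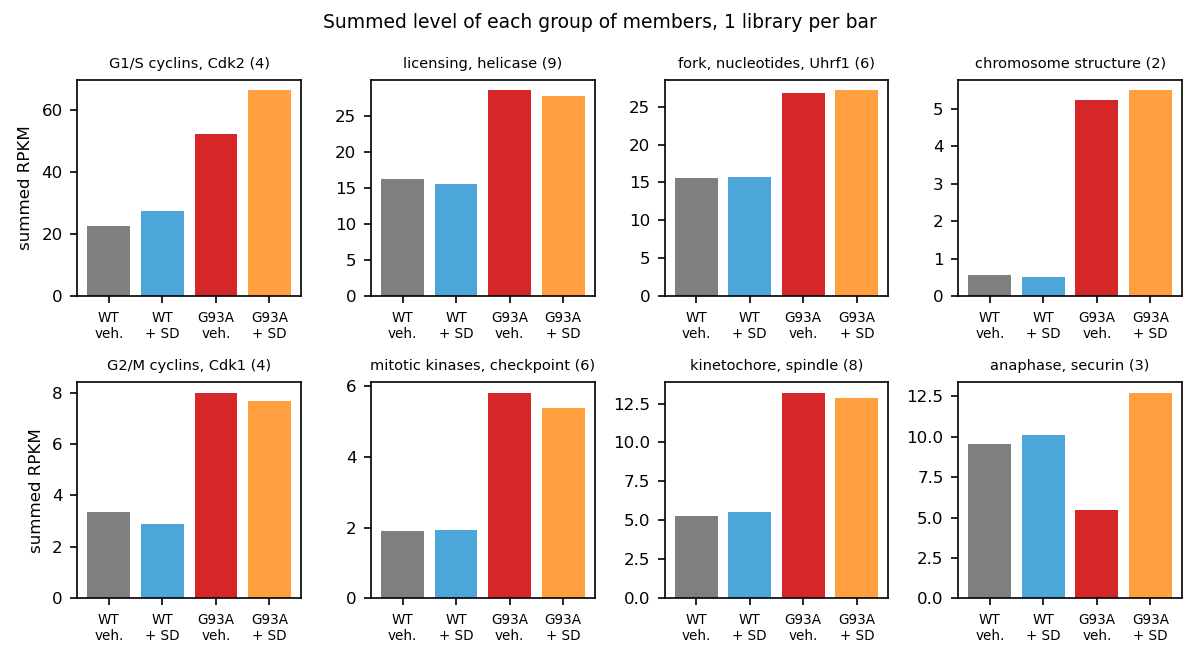
Summed RPKM of the members of each role in the 4 libraries, 1 bar per library from 0. Mki67 and Top2a go from 0.563 and 0.507 RPKM in the WT libraries to 5.25 and 5.50 RPKM in the G93A libraries, while the anaphase genes are lowest in G93A vehicle, at 5.50 RPKM.

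The 3 genes of anaphase went in different directions. Ube2c, the ubiquitin-conjugating enzyme of the anaphase promoting complex, stood at 0.0292 and 0.139 RPKM in WT and at 2.15 and 2.03 RPKM in G93A. It had the largest ratio of the 42 genes in both pairs (73.7 and 14.6), but with the pseudocount Top2a was higher in the SD pair (log2 3.23 against 3.16). The WT values rest on about 1 and 5 read pairs, so the ratio of 73.7 has a 95% exact counting interval from 13.3 to 3061, that of 14.6 from 6.18 to 47.7, and that of 4.76 between the WT libraries from 0.538 to 228. Cdc20, which activates the complex, stood at 0.425, 0.361, 1.28 and 1.17 RPKM, with ratios of 3.01 and 3.25. The intervals cover counting error only.

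Pttg1, or securin, which the anaphase promoting complex marks for destruction, was the member that differed most between the G93A libraries. It stood at 9.11 and 9.59 RPKM in WT and at 2.07 and 9.54 RPKM in G93A. The G93A vehicle library alone was low, and the other 3 lay within 9.11 to 9.59 RPKM. The ratio was 0.227 in the vehicle pair, 0.995 in the SD pair and 4.61 in G93A + SD against G93A vehicle. About 348, 385, 82 and 384 read pairs stood behind these values, so Pttg1 was not among the sparsely read members.

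Both rows of Pttg1 had this pattern. The row with the higher values read 12.4, 12.9, 2.77 and 12.9 RPKM and the other 5.80, 6.31, 1.37 and 6.17 RPKM, but the rows share reads and are not separate measurements. The gene lies at chr11:43420250-43426251 on the minus strand (GRCm38, GENCODE M21), and 0 of 2201 of its windows of read-pair length occur in another gene's transcripts on the same strand. No other member of the 42 was lower in the vehicle pair by 1.5-fold.

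**Figure D4:**
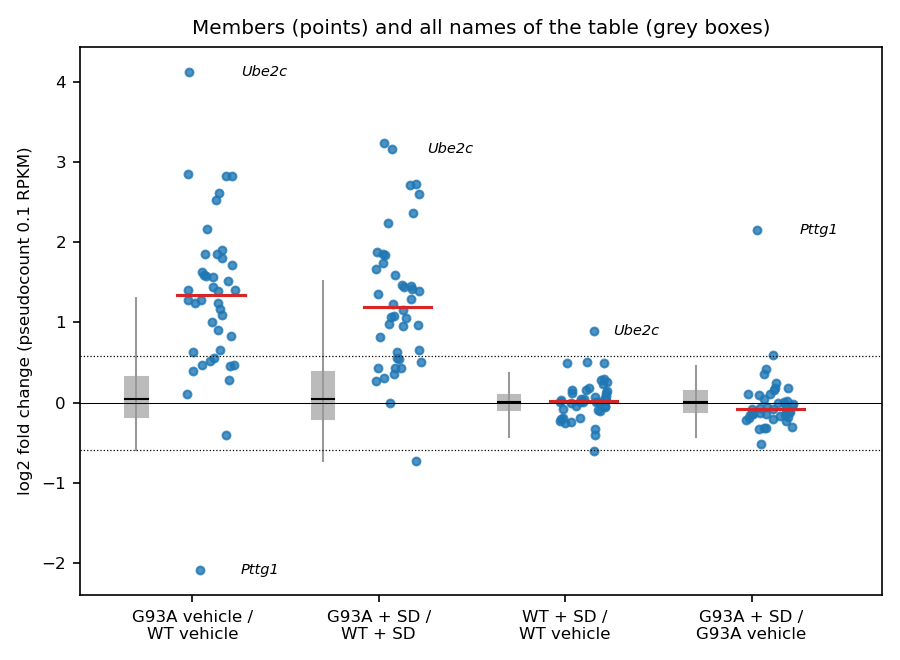
Log2 fold change (pseudocount 0.1 RPKM) of the 42 genes in the 4 comparisons, 1 point per gene, with their median as a red bar and all gene names as grey boxes (quartiles, with lines from percentile 5 to percentile 95). The medians are 1.34 and 1.20 in the genotype pairs and 0.02 and -0.08 in the SD comparisons, where Pttg1 is the highest point in G93A.

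Other cell cycle genes outside the 42 were read in 5 lists with 111 measured genes. Of these, 54 (48.6%) were higher and 2 (1.80%) lower in the vehicle pair, against 20.3% and 10.3% of all names. In the SD pair 58 (52.3%) were higher and 1 (0.901%) lower, against 23.2% and 12.5%. The largest share was among 41 other mitosis genes, with 31 higher and 0 lower in each pair (not all of them the same) and medians of 1.15 and 1.35. Pbk, a mitotic kinase, stood at 0.165 and 0.237 RPKM in WT and at 3.58 and 3.45 RPKM in G93A. Spc25, a subunit of the kinetochore's microtubule anchor, stood at 0.419, 0.514, 3.26 and 4.35 RPKM, and Ckap2l, a spindle protein, at 0.445, 0.392, 2.07 and 2.05 RPKM.

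Other replication genes differed less than the mitosis genes. Of 26 measured, 7 were higher and 1 lower in the vehicle pair and 8 higher in the SD pair, with medians of 0.21 and 0.34. The shares of higher genes, 26.9% and 30.8%, were near those of all names, 20.3% and 23.2%. Asf1b, a histone chaperone, stood at 0.383, 0.592, 1.48 and 1.57 RPKM, and Gins2, of the active helicase, at 1.04, 0.991, 2.14 and 2.90 RPKM. Hells, a chromatin remodeller, was the lower gene, at 1.84, 1.61, 1.18 and 1.41 RPKM.

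Of 19 E2F, MuvB and FoxM1 regulators, 5 (26.3%) were higher in the vehicle pair and 8 (42.1%) in the SD pair, against 20.3% and 23.2% of all names. Rb1, the retinoblastoma protein, stood at 9.45 and 9.82 RPKM in WT and at 16.3 and 21.7 RPKM in G93A. E2f5, an E2F that acts mostly as a repressor, stood at 5.38, 5.12, 7.17 and 8.05 RPKM, and Lin9, of the MuvB core, at 1.13, 1.49, 1.65 and 1.79 RPKM. Both were under 1.5-fold in the vehicle pair.

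Of 11 inhibitors of cyclin-dependent kinases and other brakes, 3 (27.3%) were higher and 1 (9.09%) lower in the vehicle pair, near the 20.3% and 10.3% of all names. In the SD pair 5 (45.5%) were higher and 1 lower, against 23.2% and 12.5%. Cdkn2c stood at 0.794, 0.435, 2.90 and 2.61 RPKM and was higher in both pairs. Cdkn1a stood at 11.4, 10.8, 16.8 and 23.9 RPKM, with ratios of 1.47 in the vehicle pair and 2.22 in the SD pair. Cdkn1c was lower there, at 10.2, 10.4, 5.87 and 4.80 RPKM. Of 14 other cyclins, kinases and phosphatases, 8 (57.1%) were higher in the vehicle pair, against 20.3% of all names. In the SD pair 6 (42.9%) were higher, against 23.2%. The other D-type cyclins were among them, with Ccnd2 at 5.23, 5.34, 16.0 and 16.2 RPKM and Ccnd3 at 8.24, 7.64, 15.8 and 15.0 RPKM. Dbf4, which activates the kinase that fires origins, stood at 0.654, 0.681, 1.40 and 1.38 RPKM.

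Markers of cell types differed between the genotypes as well. The 13 microglia and macrophage markers summed to 93.02, 84.3, 1080 and 1049 RPKM. Of these, 12 of 13 were at least 1.5-fold higher in each pair, against 20.3% and 23.2% of all names. Aif1 stood at 3.05, 2.49, 15.2 and 16.3 RPKM and Itgam at 5.27, 4.71, 20.6 and 22.4 RPKM. Astrocyte markers summed to 1744, 1596, 4210 and 4914 RPKM, with Gfap at 441, 386, 2269 and 2707 RPKM. Motor neuron markers summed to 1019, 987, 567 and 378 RPKM. Chat, the acetylcholine-synthesizing enzyme of motor neurons, was present in every library, at 9.83, 8.57, 6.55 and 4.33 RPKM.

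Markers of oligodendrocyte precursors, another dividing cell type of the cord, summed to 85.2, 83.1, 100.04 and 103 RPKM. Pdgfra, their receptor for platelet-derived growth factor, stood at 9.81, 9.76, 11.0 and 12.8 RPKM. Of the 8 precursor markers, 3 (37.5%) were at least 1.5-fold higher in the vehicle pair, against 20.3% of all names. In the SD pair 4 (50%) were higher, against 23.2%. Markers of T cells were near 0, with sums of 0.258, 0.639, 0.734 and 0.934 RPKM, and Cd3e and Cd3d were listed at 0 in WT vehicle. The sums of the other lists were 9238, 9533, 7702 and 7081 RPKM for oligodendrocytes, 1881, 1875, 1239 and 1075 RPKM for neurons, and 23.0, 26.7, 44.8 and 44.3 RPKM for ependymal cells. Of the 6 ependymal markers, 5 were at least 1.5-fold higher in the vehicle pair and 3 in the SD pair. Endothelium and pericyte markers summed to 59.0, 52.8, 59.4 and 49.7 RPKM and blood genes to 24.2, 48.7, 36.4 and 38.8 RPKM. The part of any cell type in the levels of the 42 genes was not tested. In bulk tissue, more cells of a type and more RNA per cell cannot be told apart.

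**Figure D5:**
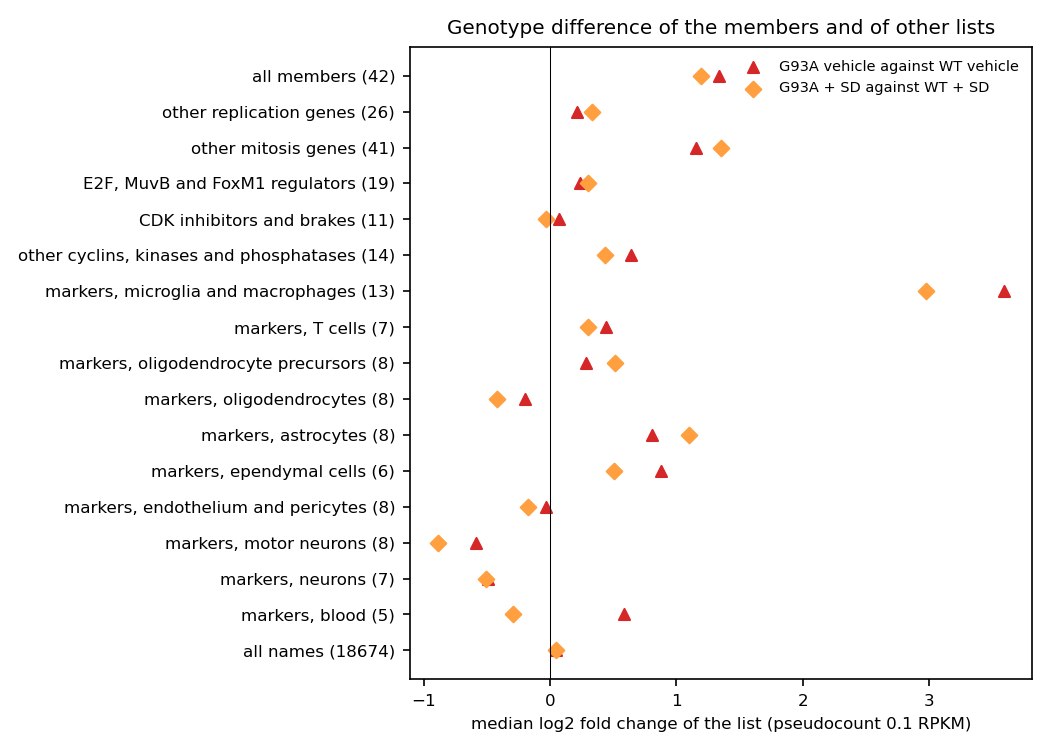
Median log2 fold change (pseudocount 0.1 RPKM) of each gene list on the x axis, with lists in rows, the number of genes in brackets and 1 point for each genotype pair. The 42 genes stand at 1.34 and 1.20 and the other mitosis genes at 1.15 and 1.35, against 0.05 for all names.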

How the data were processed

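Lumbar spinal cord RNA (polyA, 53 bp reads) was read in 4 libraries, 1 per condition, with groups taken from the labels. The authors deposited 1 table of RefSeq transcripts with 1 column of values per library. Neither the header nor the methods give the unit of the deposited values, and they were read as RPKM from how they scale with transcript length. The submitters' processing notes and the methods name STAR, the GRCm38 build and counting with HTSeq. The authors' ratio columns were not used. The design's rule for normalized values was followed.

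The table has 23750 rows and 18674 gene names, and the level of a name is the mean of its rows. 12 of the 42 genes have several rows, which share reads. A name was called higher or lower at a 1.5-fold ratio with no pseudocount and no filter, and log2 fold changes used a pseudocount of 0.1 RPKM. No test was run, since each condition has 1 library. Read pairs are estimates from the steps between low values on transcripts over 500 bases, with lengths from GENCODE M21 for 97.0% of rows. Counting intervals are exact conditional 95% intervals on those estimates and cover counting error only. They were computed for members with under 20 pairs in a library, and the text gives some of these. Windows of 108 bases, the length taken for a read pair, and of 53 bases were compared with transcripts of other genes.

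The members and lists were chosen with earlier results of these data known. The genes named are all 42 members, at most 3 genes per list with the largest absolute log2 fold change in the vehicle pair and a mean of at least 1 RPKM, and among the first 2 genes of marker lists. Genes on the opposite strand were added after values had been seen. The genes around Pttg1 are not reported here. The alternatives were pseudocounts of 0.1 and 1 RPKM, a 2-fold threshold, a mean of at least 1 RPKM, median-ratio scaling and other handling of rows. Python 3.11.15, numpy 2.4.6, pandas 2.3.3, scipy 1.17.1 and matplotlib 3.10.9 were used, and the calculations were tested on simulated data.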

Additional observations from a re-analysis of the deposited data

Results flagged for a closer look

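Tk1 had ratios in opposite directions with SD in the 2 genotypes. Its ratio with SD against vehicle was 1.59 in WT and 0.666 in G93A, both past 1.5-fold. These ratios rest on about 23 against 14 and 36 against 54 read pairs, and the first has a 95% exact counting interval from 0.780 to 3.32, which includes 1. With a pseudocount of 0.1 RPKM neither was past 1.5-fold (log2 0.51 and -0.52). With 1 library per condition this difference was not tested, and the WT values of Tk1 were 0.258 and 0.410 RPKM.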

How the results depend on the processing

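No paired analysis was possible because the conditions share fewer than 2 replicate numbers, with 1 library each. For the same reason no library could be left out, and the spread between animals is unknown. In the vehicle pair, with a mean of at least 1 RPKM, 17 of the 26 remaining members were higher and the median log2 fold change was 1.05, though 10 of the 26 pass that filter only through G93A. In the same pair, with a pseudocount of 1 RPKM the median was 0.64. In the SD pair the same filter gave 18 higher and a median of 1.02, and that pseudocount gave 20 higher and a median of 0.58. At 2-fold, 0 members were lower in the SD pair. The calls in the SD comparisons rest on low levels apart from Pttg1. Between the WT libraries, 1 was higher and 1 lower with a pseudocount of 0.1 RPKM, 0 and 0 with 1 RPKM, 1 and 0 with a mean of at least 1 RPKM, and 1 was lower at 2-fold. Between the G93A libraries, 1 was higher with a pseudocount of 1 RPKM, with the filter and at 2-fold, and 0 were lower with either pseudocount, with the filter and at 2-fold. With the filter fewer genes were counted, and the share of higher members fell too. It went from 78.6% to 65.4% in the vehicle pair and from 78.6% to 69.2% in the SD pair. A pseudocount shrinks ratios of low genes by its construction. Among the values recomputed, 2 changed sign, both near 0 and not past 1.5-fold. Pttg1 in the SD pair went from -0.0078 to 0.0039 on its row with the highest mean, and Kif20a between the WT libraries from 0.0080 to -0.0016 with median-ratio scaling. Depth limits the WT values most, with 10 and 8 members under 20 estimated read pairs.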
